A study of Homo sapiens with 38 samples.

Results

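Of the 5151 reproducible CUT&RUN peaks of FLAG-tagged wild-type Sp1 (Sp1 WT), 381 (7.40%, 95% Wilson interval 6.71 to 8.14) held no GC box between their start and end in hg38. These GC-box-free peaks were chosen by sequence alone, as peaks of the mouse anti-FLAG list of the Sp1 WT line without the hexamer GGGCGG on either strand. The other 4770 peaks held at least 1 GC box and serve as the comparison. GC-box-free refers to the hexamer GGGCGG only, and other sequences that Sp1 can bind may be present.

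CUT&RUN directs a nuclease with an antibody to a protein in permeabilized cells, and the DNA cut free beside that protein is sequenced. Every line was U2OS, a human osteosarcoma line, with V5 and Halo tags knocked in at endogenous Sp1. The parental line is called CTRL, and the others also carried 1 FLAG-tagged construct at the AAVS1 safe harbor locus, induced with doxycycline. The labels give doxycycline at 1 µg/ml for 36 h for every sample, CTRL included. By the study's methods, expressing cells were then sorted and kept in doxycycline for another 36 h. The constructs were Sp1 WT, the Sp1 DNA-binding domain alone (Sp1 DBD), an Sp1 frameshift variant that keeps the disordered region but only 1 zinc finger (Sp1 DBD Mutant), the Sp1 intrinsically disordered region on the bacterial repressor LacI (Sp1 IDR-LacI) or on the CTCF DBD (Sp1 IDR-CTCF DBD), LacI alone, the CTCF DBD alone, the disordered region of EWS on the Sp1 DBD (EWS IDR-Sp1 DBD), and a nuclear SNAPf tag (SNAPf-NLS). The 38 samples are 2 biological replicates of 19 combinations of line and antibody. The anti-V5 lists report endogenous Sp1, and the anti-FLAG lists report the construct.

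Sp1 is a broadly expressed activator whose zinc fingers read the GC box, a G-rich element common in CpG-island promoters. Related G-rich elements, such as GT boxes, are also bound by Sp and KLF family zinc fingers. The disordered region of Sp1 contacts other proteins, so a peak can lie where the protein is held by DNA sequence, by other proteins or by both, and CUT&RUN alone does not separate these. AP-1, a dimer of Jun and Fos family proteins, is well known at distal enhancers. Its motif was searched as TGANTCA with any base at N, which also takes in words other than its usual site TGACTCA.

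Sequences around some of the strongest summits are given as examples. The windows of 201 bases below are centred on the summits of the 4 strongest GC-box-free peaks at protein-coding starts and the 2 strongest distal ones outside repeated sequence, read on the plus strand of hg38. Capitals mark 3 hexamers that lie 1 base from the GC box, namely the GT form GGGTGG, the form with A in its place GGGAGG, and the form with a final T, GGGCGT, on either strand, and they also mark the AP-1 motif TGANTCA.
CCDC167, chr6:37500058-37500258: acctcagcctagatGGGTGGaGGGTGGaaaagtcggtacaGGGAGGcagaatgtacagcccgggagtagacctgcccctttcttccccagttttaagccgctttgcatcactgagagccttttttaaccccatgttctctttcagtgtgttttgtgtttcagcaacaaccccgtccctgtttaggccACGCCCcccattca
PI4K2A, chr10:97640431-97640631: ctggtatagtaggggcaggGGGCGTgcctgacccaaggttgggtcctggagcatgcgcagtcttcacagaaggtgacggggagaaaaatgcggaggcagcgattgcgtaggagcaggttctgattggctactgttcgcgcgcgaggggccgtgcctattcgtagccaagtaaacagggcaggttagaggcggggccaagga
S100A11, chr1:152048113-152048313: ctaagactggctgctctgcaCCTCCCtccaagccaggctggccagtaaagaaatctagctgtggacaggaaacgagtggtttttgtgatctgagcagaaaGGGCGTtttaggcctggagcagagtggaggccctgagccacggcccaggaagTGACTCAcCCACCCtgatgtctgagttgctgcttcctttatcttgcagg
RIOK2, chr5:97183549-97183749: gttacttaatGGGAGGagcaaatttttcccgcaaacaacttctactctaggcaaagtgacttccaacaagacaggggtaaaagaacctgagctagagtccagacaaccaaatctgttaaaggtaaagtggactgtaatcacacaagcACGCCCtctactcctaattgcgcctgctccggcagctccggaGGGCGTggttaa
Distal peak in SLC8A2, chr19:47428247-47428447: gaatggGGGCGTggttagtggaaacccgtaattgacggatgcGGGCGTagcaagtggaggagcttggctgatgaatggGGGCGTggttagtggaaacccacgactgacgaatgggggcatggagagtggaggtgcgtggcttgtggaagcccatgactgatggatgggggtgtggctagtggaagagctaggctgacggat
Distal peak in LINC01413, chr15:57324344-57324544: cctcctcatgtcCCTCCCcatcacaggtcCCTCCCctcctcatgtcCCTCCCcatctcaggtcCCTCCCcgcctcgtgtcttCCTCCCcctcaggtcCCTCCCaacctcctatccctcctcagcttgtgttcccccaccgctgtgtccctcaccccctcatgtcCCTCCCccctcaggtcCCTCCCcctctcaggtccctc
Other hexamers 1 base from the GC box stay in lower case, such as AGGCGG in the PI4K2A window. The CCDC167 window held 2 matches to GGGTGG, 1 to GGGAGG and 1 to GGGCGT. The S100A11 window held 1 match to each of the 3 hexamers and 1 to TGANTCA. The windows of both distal peaks held several copies of 1 hexamer, with 3 of GGGCGT in the SLC8A2 peak and 8 of GGGAGG in the LINC01413 peak. In both windows these copies lay in stretches of similar sequence that recur along the window. The rule for repeated sequence, given below, counts exact copies only, and 2.34% and 15.2% of words were repeated in these windows. A match is a description of the letters and not evidence of a bound site.

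GC-box-free peaks lay mostly away from transcription starts. Of the 381, 96 (25.2%, interval 21.1 to 29.8) had the summit within 1000 bp of a protein-coding start, against 81.6% (80.5 to 82.7) of the peaks with a GC box. Another 27 lay near a noncoding start only, and 258 (67.7%) were distal, against 12% of the peaks with a GC box. Seen from the other side, 31% of all distal Sp1 WT peaks and 2.41% of those at protein-coding starts had no GC box. All intervals given for shares cover counting error over peaks only, since neighbouring peaks are not independent and each list combines both replicates.

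Many of these peaks stood in repeated sequence, meaning that 50% or more of the words of 31 bases around the summit had another copy in hg38. The rule counts exact copies only, so repeats whose copies differ can fall outside it. That held for 114 of 381 (29.9%, interval 25.5 to 34.7), against 238 of 4770 peaks with a GC box (4.99%, 4.41 to 5.64). Of the 114, 101 were distal, 19 lay on sequences other than chromosomes 1 to 22 and X, 27 lay on chromosome 1 and 13 on chromosome 10. The satellite word GGAATGGAA was found in 18 of the 114 windows (15.8%) and in 0 of the 267 windows outside repeated sequence.

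**Figure D1:**
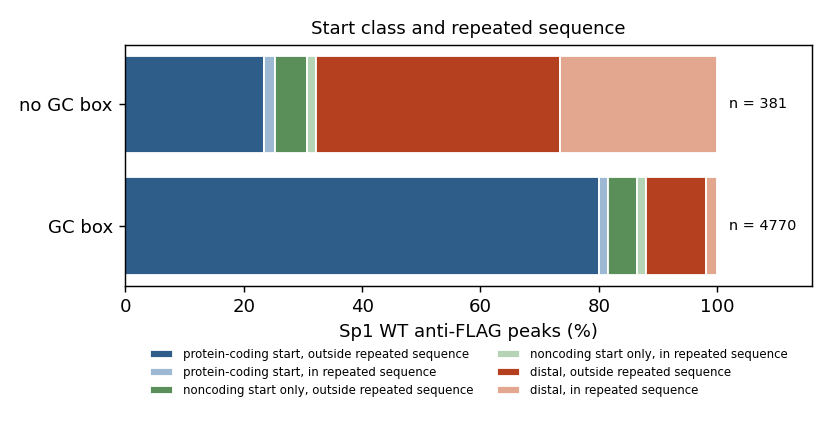
Bars give the percentage of Sp1 WT anti-FLAG peaks in each class, for the 381 peaks without and the 4770 with a GC box. Colours separate protein-coding starts, noncoding starts and distal peaks, with paler shades for repeated sequence, and the distal shades fill 67.7% of the upper bar and 12% of the lower.

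The peaks were narrow and weak. Their median width was 556 bp (interval of the median 529 to 590), against 972 bp (956 to 990) with a GC box, and 251 of 381 fell among the narrowest 25% of the list. A narrow peak offers fewer positions for a hexamer, so width and the absence of a GC box are linked by construction. By the authors' −log10 p-value, which ranks peaks within a list, 36, 83, 122 and 140 members fell in groups 1 (strongest) to 4 when all 5151 peaks were cut by rank into 4 groups of like size, and the median was 15.2 against 19.1. GC content had a median of 53.6% against 63.6%. Peaks with exactly 1 GC box, just across the boundary, had a median width of 680 bp, a median −log10 p of 15.3 and a median GC content of 58.2%.

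A GC box lay close outside some of the peaks. Within 100 bp of an edge a GC box was found for 33 of the 381 peaks (8.66%), and within 500 bp for 117 (30.7%).

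The strongest members were mainly in repeated sequence. The first, on the unplaced contig Un_KI270744v1, ranked 14 of 5151 with a −log10 p of 103, and its replicate values were 115 and 103. The next was in an intron of PKD1 on chromosome 16 (start 2127684, end 2129083), at rank 34, with replicate values of 88.5 and 120. The fourth lay in an intron of PRKAR1B on chromosome 7, ranked 60 in Sp1 WT and 9 of 3277 in the Sp1 DBD list. Of the 5 strongest members, 4 were in repeated sequence, and CCDC167 was the exception. Whether reads could be placed uniquely at these peaks was not measured.

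At protein-coding starts outside repeats, 89 members remained. CCDC167, a coiled-coil protein gene, had the strongest peak (chr6:37499579-37500563, summit 265 bp from the start, replicate values 74.6 and 89.3), and it was also found at rank 354 of 1987 in CTRL rabbit anti-V5 and at rank 1568 of 3277 in Sp1 DBD. PI4K2A, a phosphatidylinositol 4-kinase gene, had replicate values of 55.2 and 83.5 and was in all 8 anti-V5 lists and in Sp1 DBD, but not in EWS IDR-Sp1 DBD. The peak at S100A11, a calcium-binding protein gene, was in both Sp1 DBD and EWS IDR-Sp1 DBD, with replicate values of 42.2 and 41.0. All 3 peaks were in anti-V5 lists too, but S100A11 was in only 3 of the 8 and in neither anti-V5 list of the Sp1 WT line. It ranked 1607 of 1987 in CTRL rabbit, 1396 of 1830 in CTRL mouse and 1722 of 2126 in Sp1 IDR-LacI rabbit anti-V5.

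CDC6, which loads the replicative helicase, ranked 846 with replicate values of 35.3 and 44.1 and was in all 8 anti-V5 lists. MCM3, a subunit of that helicase, ranked 1064 with 31.4 and 48.3, and its summit lay 6 bp from the start. Its peak was in none of the anti-V5 lists and was overlapped only by the Sp1 IDR-CTCF DBD and CTCF DBD anti-FLAG lists. SPOP, a substrate adaptor of a ubiquitin ligase, was in 7 anti-V5 lists and in Sp1 DBD at rank 3195 of 3277. ATP5F1B, a subunit of mitochondrial ATP synthase, and TERF1, a telomere-binding protein, were in no other list. The others of the 12 strongest were RIOK2, GON4L, INTS9 and RPS25.

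Few members lay at the gene families counted. Cytosolic ribosomal protein genes had 3 members (RPS25, RPL23A and RPL22) of 19 Sp1 WT peaks at such genes. Zinc finger genes had 4 (ZNF335, ZNF285, ZNF260 and ZNF576) of 123. Initiation factors had 2 (EIF2S1 and EIF1AD, each at a start shared with another gene) of 22, small nuclear and nucleolar RNA genes 2 of 23, and mitochondrial ribosomal proteins (MRPL48), proteasome (PSMB5) and splicing (SNRPB) 1 each, of 25, 21 and 14. Replication-dependent histones had 0 of 4 and aminoacyl-tRNA synthetases 0 of 11. Except for the small RNA genes, every peak counted here lay at a protein-coding start, where 2.41% of Sp1 WT peaks had no GC box. The share was 15.8% (5.52 to 37.6) for cytosolic ribosomal proteins, 9.09% (2.53 to 27.8) for initiation factors and 3.25% (1.27 to 8.06) for zinc finger genes. The first 2 intervals lay above 2.41%, on 3 and 2 peaks among 9 families counted, so these are given as values only.

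Distal members outside repeats numbered 157, of which 85 had the summit in an intron, 62 between genes and 10 in an exon. The strongest, in an exon of SLC8A2 (a sodium-calcium exchanger gene), ranked 139 with replicate values of 66.2 and 92.2. It was in 7 anti-V5 lists, at rank 49 of 1830 in CTRL mouse anti-V5, but not in CTRL rabbit anti-V5. The peak in LINC01413 ranked 175 and was in all 8 anti-V5 lists, Sp1 DBD and EWS IDR-Sp1 DBD. A peak between genes near CNOT3 was at rank 66 of 2535 in EWS IDR-Sp1 DBD and absent from the Sp1 DBD list, whereas a peak near ASL was in Sp1 DBD at rank 568 of 3277 and in no other list. A peak between genes near JUP was in EWS IDR-Sp1 DBD only, at rank 1803 of 2535. The members found in the most other lists outside repeats were those in LINC01413, at ENSG00000273877, at MIATNB and in STX18-AS1, with 10 of 18 lists each.

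The AP-1 motif was more frequent at these peaks than at peaks with a GC box. TGANTCA was within 100 bp of the summit in 48 of 157 distal members (30.6%, interval 23.9 to 38.2) and 18 of 110 members at a start (16.4%, 10.6 to 24.4). It was in 11.4% (8.84 to 14.5) of distal peaks with a GC box and 2.52% of those at a start. In windows 2000 bp to either side of the members it was in 4.49%, and at all annotated starts of protein-coding genes in 4.04%. GC content also differs between these sets, and its part in the difference was not tested.

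Hexamers 1 base from the GC box were common. At least 1 of the 18 was in 250 of 267 windows outside repeats (93.6%), but also in 68.2% of flanking windows. GGGAGG was in 58.4% (52.4 to 64.2) of members, 56.8% of peaks with a GC box and 34.3% of flanks. GGGTGG was in 37.8% (32.2 to 43.8), 35.0% and 17.0%, and GGGCGT in 23.2% (18.6 to 28.6), 24.6% and 4.12%. These 3 were picked from the 18 with the values known, and they are among those that differed least between members and peaks with a GC box. Of the 18, the share was lower in members than in peaks with a GC box for 13, with the interval of the difference below 0, and for the other 5 the interval held 0. CGGCGG was in 6.74% of members and 30.8% of peaks with a GC box, and GGGCCG in 9.36% and 36.1%. Against the flanks, 15 hexamers were more frequent in members and for 3 the interval of the difference held 0. GGTCGG was among these 3, with the same share in both. All of these comparisons pool start classes. Outside repeats, 58.8% of members and 10.7% of peaks with a GC box were distal, and median GC content was 55.1% and 63.6%. The part of start class and GC content in the hexamer differences was not tested.

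Other promoter motifs were counted at starts. There the CCAAT box was in 34.5% of members and 32.3% of peaks with a GC box, and the ETS motif CCGGAAG in 9.09% and 9.26%. NRF1 (GCGCATGC) was in 4.55% and 2.64%, CRE (TGACGTCA) in 2.73% and 1.21%, the E box CACGTG in 4.55% and 5.14%, and TATAAA in 3.64% and 2.15%. AAGATGGCG (YY1) and ACTACAATT (ZNF143) were each in 1 of 110 windows and TCTCGCGA in 2. The CTCF core and the telomere word TTAGGGTTA were in 0 of the 381 windows, which says only that these letters were not within 100 bp of those summits.

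**Figure D2:**
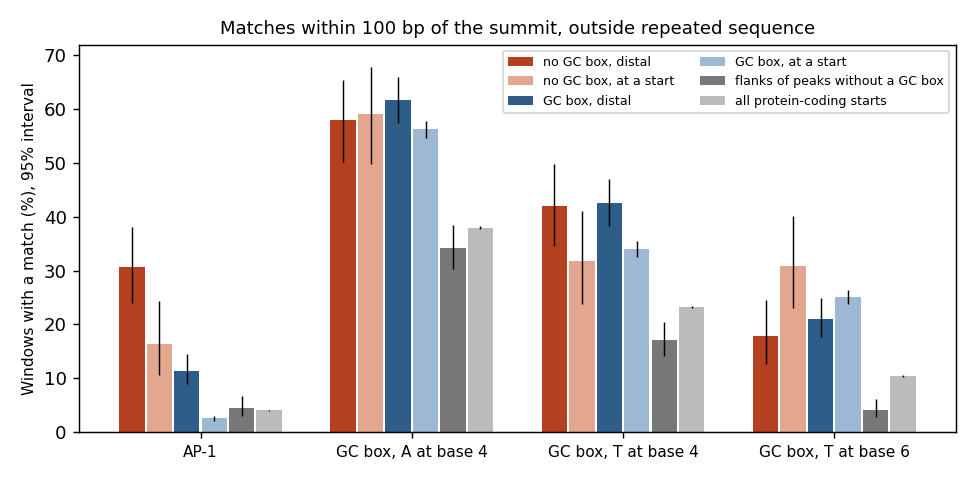
Bars give the percentage of windows of 201 bases with a match on either strand, with 95% Wilson intervals, for AP-1 and 3 hexamers that differ from the GC box at the named base. AP-1 reaches 30.6% in distal members against 11.4% in distal peaks with a GC box, and 16.4% against 2.52% at starts, whereas the 3 hexamers, picked from 18 of which 13 were rarer in peaks without a GC box, differ little between peaks with and without one (58.4% and 56.8% for GGGAGG).

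The Sp1 DBD recovered few of these peaks. Its anti-FLAG list overlapped 58 of 381 members by at least 1 bp (15.2%, interval 12 to 19.2), against 51.3% of peaks with a GC box and 48.7% of all Sp1 WT peaks. The difference was -36.1 percentage points (95% Newcombe interval -39.7 to -31.9), and outside repeats it was -38.9 (-42.7 to -34.2). EWS IDR-Sp1 DBD recovered 71 members (18.6%), against 36.4% and 35.1% of all peaks. Outside repeats, 34 members were in the EWS list and not in the Sp1 DBD list (12.7%, 9.26 to 17.3), against 6.13% (5.47 to 6.87) of peaks with a GC box. Within start classes the difference was 4.73 points (-0.824 to 11.5) among distal peaks, at 14.6% and 9.92%, and 3.54 points (-0.894 to 11.3) at protein-coding starts, at 8.99% and 5.45%, so both intervals held 0.

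The anti-V5 lists overlapped some of them. CTRL rabbit anti-V5 recovered 56 members (14.7%; all peaks 30.6%) and CTRL mouse anti-V5 recovered 51 (13.4%; all peaks 29.6%). In the Sp1 WT line the members' shares were 21.5% with rabbit and 12.1% with mouse anti-V5, against 26.4% and 21.1% of all peaks. In the Sp1 IDR-LacI line they were 13.9% and 16.8%, against 32.8% and 27.3%, and in the Sp1 IDR-CTCF DBD line 16.8% and 11.3%, against 33.4% and 22.2%. These pooled shares include members in repeated sequence. There, any of the 8 anti-V5 lists overlapped 68 of 114 members (59.6%), against 51.7% of all peaks in repeats. The anti-FLAG lists of CTRL and of constructs without intact Sp1 or CTCF zinc fingers together overlapped 48 of the same 114. Outside repeats, any anti-V5 list overlapped 64 of the 267 members (24.0%), against 45.6% of all peaks outside repeats. Of the 64, 50 were absent from the Sp1 DBD list, which is 18.7% of members against 16.8% of all peaks outside repeats, a share near the background. Outside repeats, 151 members (56.6%, 50.6 to 62.4) were in no other list, against 27.4% (26.1 to 28.7) of peaks with a GC box.

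Constructs without intact Sp1 or CTCF zinc fingers overlapped almost only GC-box-free peaks. Sp1 IDR-LacI overlapped 39 members (10.2%; all peaks 0.777%), SNAPf-NLS 20 (5.25%; 0.388%), Sp1 DBD Mutant 12 (3.15%; 0.233%), LacI 11 (2.89%; 0.214%) and CTRL rabbit anti-FLAG 10 (2.62%; 0.194%). CTRL mouse anti-FLAG overlapped 0 members and 0% of all peaks. Together these lists touched 50 Sp1 WT peaks, of which 49 had no GC box, and 48 of the 49 were in repeated sequence. Without repeated sequence, 1 of 267 members was in any of these lists. In repeated sequence, the Sp1 WT line's rabbit anti-V5 list recovered 48.2% of members (39.3 to 57.3) and CTRL rabbit anti-V5 10.5%, which both stain endogenous Sp1 with the same antibody in different lines.

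The CTCF DBD recovered 21 members (5.51%; all peaks 3.88%) and Sp1 IDR-CTCF DBD recovered 11 (2.89%; all peaks 1.42%). Outside repeats, 9 of the 12 members in the CTCF DBD list were at protein-coding starts, where the share was 10.1% (interval 5.41 to 18.1) against 3.41% of peaks with a GC box, a difference of 6.70 points (1.96 to 14.7). Among distal members it was 1 of 157. As above, no window of these members held the CTCF core.

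**Figure D3:**
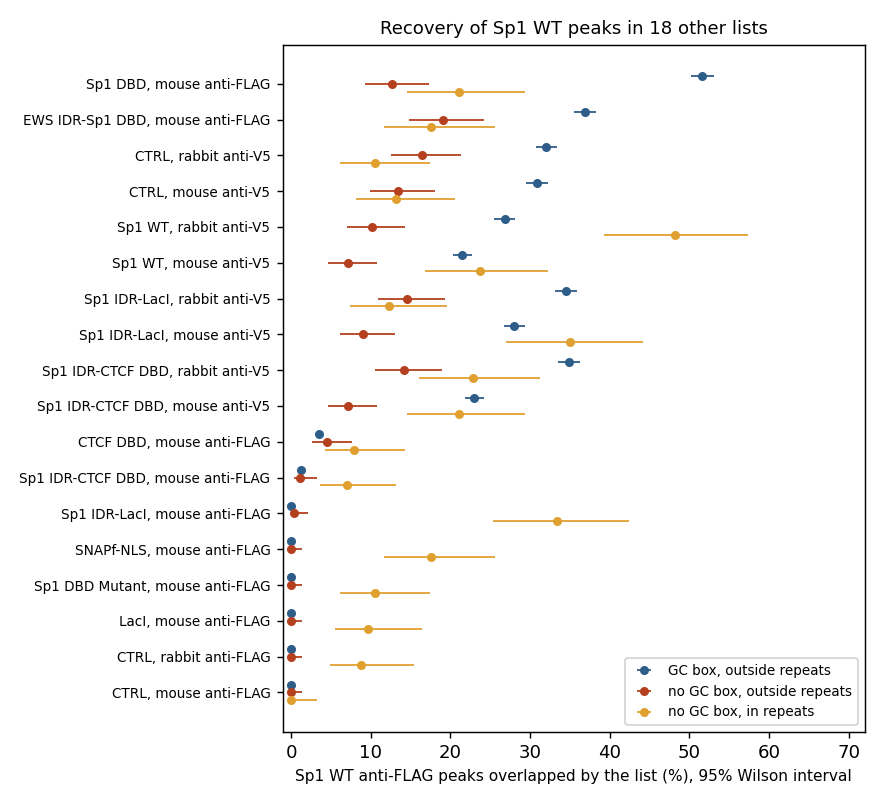
Points give the percentage of Sp1 WT peaks overlapped by each of 18 other lists, with 95% Wilson intervals, for peaks with a GC box outside repeats and for GC-box-free peaks outside and in repeats. The Sp1 DBD separates the first 2 sets most (51.7% and 12.7%), and the lists at the bottom overlap the GC-box-free peaks in repeats.

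Because members were weak, recovery was compared within the 4 rank groups of the Sp1 WT list, outside repeats. For the Sp1 DBD the members' shares were 48.0%, 21.7%, 6.17% and 6.09% in groups 1 to 4, against 81.3%, 58.3%, 39.9% and 24.7% with a GC box, and the intervals of all 4 differences lay below 0. For CTRL rabbit anti-V5 they were 48.0%, 28.3%, 14.8% and 6.09%, against 68.2%, 32.0%, 16.4% and 8.86%. The difference in group 3 was -33.7 points (-38.3 to -25.7) for the Sp1 DBD and -1.57 (-8.11 to 7.98) for CTRL rabbit anti-V5. In groups 2 to 4, then, the deficit was plain for the Sp1 DBD, while the interval for rabbit anti-V5 held 0 and reached -15.0 in group 2. For CTRL rabbit anti-V5 in group 1, where 25 members fell, the difference was -20.2 (-38.3 to -1.49). For EWS IDR-Sp1 DBD the differences were -23.0, -0.747, -12.5 and -2.90 points in groups 1 to 4, and the intervals in groups 2 and 4 held 0. Among distal peaks alone the Sp1 DBD differences were -29.8 (-50.6 to -4.10), -18.2 (-32.2 to 2.25), -19.7 (-28.7 to -7.58) and -8.54 (-16.4 to 1.51), so the intervals in groups 2 and 4 held 0 there. These lists were compared side by side, and the difference between their deficits was not tested. The rank groups do not hold width fixed. Outside repeats, 62.5% of members and 21.5% of peaks with a GC box were among the narrowest 25% of the list, and a narrow peak offers fewer bases to overlap. CTRL mouse anti-V5 by rank group is drawn in the figure only, so the contrast above is given for the rabbit antibody alone. Without regard to rank, 11.2% (7.98 to 15.6) of members outside repeats were in both CTRL anti-V5 lists. The share was 25.6% (24.3 to 26.9) of peaks with a GC box.

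**Figure D4:**
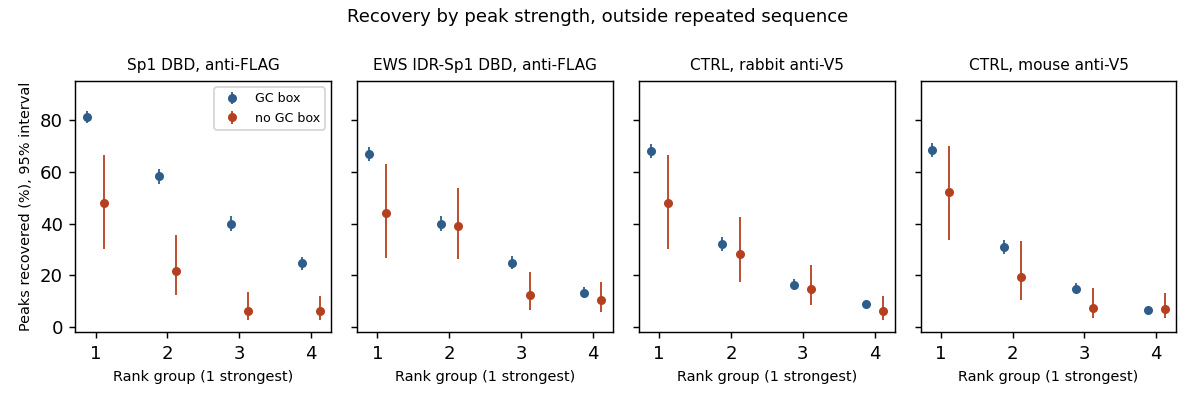
Points give the percentage of peaks outside repeats recovered by each list in rank groups 1 (strongest) to 4, with 95% Wilson intervals. Peaks with and without a GC box are apart in every rank group for the Sp1 DBD (39.9% and 6.17% in group 3) and close in groups 2 to 4 for CTRL rabbit anti-V5.

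Recovery by the Sp1 DBD rose with the number of GC boxes. Outside repeats it was 12.7% with 0, 18.8% with 1, 32.2% with 2, 44.9% with 3 to 4, 58.9% with 5 to 8 and 72.3% with 9 or more. For CTRL rabbit anti-V5 the same shares ran from 16.5% and 17.6% with 0 and 1 to 41.2% with 9 or more, and for the CTCF DBD from 4.49% to 2.32%. Median width rose over the same steps from 595 bp to 1445 bp, and the part of width in the trend was not tested. EWS IDR-Sp1 DBD recovered 19.1% (14.8 to 24.2) of peaks with 0 and 13.5% (10.6 to 17.2) of those with 1, and 60.3% with 9 or more.

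**Figure D5:**
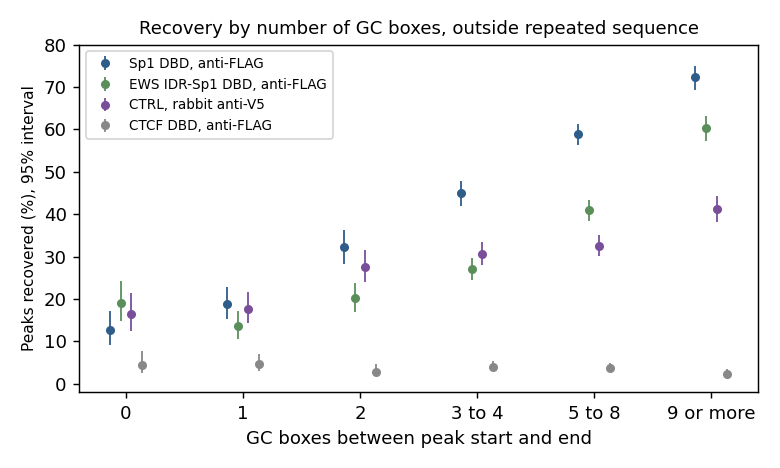
Points give the percentage of Sp1 WT peaks outside repeats recovered by 4 lists against the number of GC boxes in the peak, with 95% Wilson intervals. The Sp1 DBD runs from 12.7% to 72.3%, CTRL rabbit anti-V5 from 16.5% to 41.2%, and the CTCF DBD stays under 5%.

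Recovery also differed among the members for some of the motifs by which they were split. Distal members with TGANTCA were in the Sp1 DBD list in 1 of 48 cases (2.08%) and those without it in 17 of 109 (15.6%), a difference of -13.5 points (-21.7 to -3.06). For any anti-V5 list the shares were 18.8% and 20.2%, a difference of -1.43 (-13.5 to 13.3). Distal peaks with a GC box were split the same way in the Sp1 DBD list, at 14.5% with and 36.1% without TGANTCA, and there the anti-V5 lists were split too, at 18.2% and 32.6%, a difference of -14.5 (-23.7 to -1.58). Among members at a start the Sp1 DBD difference was 2.54 (-11.3 to 25.8). Members outside repeats with GGGCGT were in an anti-V5 list in 27 of 62 cases (43.5%) and those without it in 37 of 205 (18%), a difference of 25.5 points (12.5 to 38.7), while in the Sp1 DBD list the difference was 6.52 (-2.55 to 18.4). For GGGCGT in distal peaks with a GC box the differences were 7.94 (-2.03 to 18.5) for the anti-V5 lists and 12 (1.61 to 22.6) for the Sp1 DBD. GGGTGG and GGGAGG were split too, and among members outside repeats their anti-V5 differences were -9.89 (-19.5 to 0.739) and -6.77 (-17.4 to 3.53). In the EWS IDR-Sp1 DBD list the TGANTCA difference was 21.4 (2.45 to 44.9) among members at a start and -10.2 (-21.7 to 4.29) among distal members.

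The authors' differential tables compare replicate-combined signal of Sp1 WT and 1 other construct. Against the Sp1 DBD, 268 of 381 members (70.3%, interval 65.6 to 74.7) overlapped a region specific to Sp1 WT, against 54.0% of peaks with a GC box and 55.2% of all peaks. A common region overlapped 50.7% and 85.5%, and a region specific to the Sp1 DBD 2 members (0.525%) and 7.17%. A peak can overlap more than 1 class. Against EWS IDR-Sp1 DBD the order was reversed, with 66.9% of members over a region specific to Sp1 WT, 83.7% of peaks with a GC box and 82.5% of all peaks. Against the constructs with CTCF or LacI domains nearly every Sp1 WT peak was over such a region, but a smaller share of the members was. The shares were 81.9% of members and 96.9% of all peaks for the CTCF DBD, and 82.7% and 98.1% for Sp1 IDR-CTCF DBD. They were 86.4% and 99% for Sp1 IDR-LacI, and 95% and 99.6% for LacI. Outside repeats the members' shares in these 4 tables were 95.5%, 97.8%, 100% and 100%.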

How the data were processed

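CUT&RUN peak lists of 19 combinations of line and antibody (2 biological replicates each) and 6 differential tables were used. Per the labels and the study's methods, the authors trimmed reads (cutadapt 2.6), aligned them to hg38 (Bowtie2 2.3.5.1), removed duplicates (SAMtools 1.9), called peaks (MACS3, given as 2.2.7.1) and kept peaks with an IDR of at most 0.1. The deposited −log10 p-value ranked peaks within a list, the deposited score (−log10 IDR) set stricter thresholds, and the log10 likelihood ratio score of the differential tables was not thresholded. The lists hold no read counts, so depth is not given here.

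GC boxes and motifs were searched in hg38 on both strands (pysam 0.24.0), starts came from GENCODE 44, and repeated sequence was measured with 31-base words. Overlap meant at least 1 bp. Counts of overlapping peaks equalled those of bedtools 2.31.1 for all 18 lists. Overlap and motif code were tested on simulated data. Shares have Wilson and differences Newcombe intervals (95%, SciPy 1.17.1), and no p-value was computed over peaks.

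Named peaks were the 5 strongest members, the 12 strongest at protein-coding starts and 5 strongest distal ones outside repeats, the 5 found in most lists, and up to 6 per gene family. Members, lists and motifs were chosen with earlier results of these data known. The comparisons by start class and by motif among members were chosen after seeing the data. Alternatives were IDR limits, GC box search windows, overlap rules, start distances, repeat limits and sets of peaks.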

Additional observations from a re-analysis of the deposited data

How the results depend on the processing

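Of 141 recomputed values for 12 results, 85 stayed inside the interval of the value reported. Each list combines both replicates, so no replicate could be left out, and no paired analysis was possible because no result comes from a test over samples. The planned repeat definition from soft-masked bases was not run, since the reference carried no masking.

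With an IDR of at most 0.05 the share of Sp1 WT peaks without a GC box was 5.76%, their median width 604 bp and their recovery by SNAPf-NLS 2.37%. With an IDR of at most 0.01 these were 3.51%, 812 bp and 0%, the weakest of 4 rank groups held 31.1%, recovery was 25.6% by rabbit and 26.7% by mouse anti-V5 in the parental line and 1.11% by the CTCF DBD, and 84.4% were over a region specific to Sp1 WT against the Sp1 DBD. Searching for the GC box within 100 bp of the summit only gave a share of 29.8%, 71.0% within 1000 bp of a start, 12% in repeated sequence, a median width of 896 bp and 27.5% in the weakest group. Recovery was then 36.6% by the Sp1 DBD, 27.8% by EWS IDR-Sp1 DBD, 23.1% and 20.0% by parental rabbit and mouse anti-V5 and 1.30% by SNAPf-NLS, and 65.5% were over a region specific to Sp1 WT. Most peaks added by that definition hold a GC box farther from the summit.

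Counting GGGTGG as a GC box too gave a share of 3.32%, with 27.5% near a start, 52.0% in repeated sequence, a median width of 471 bp, 29.8% in the weakest group, recovery of 13.5% by EWS IDR-Sp1 DBD and 11.7% by SNAPf-NLS, and 60.2% specific to Sp1 WT. Without repeated sequence the share was 5.56%, with 41.2% near a start, 595 bp, 42.7% in the weakest group, 0% recovered by SNAPf-NLS and 78.3% specific to Sp1 WT. Starts within 5000 bp took in 53.8% and protein-coding starts alone 25.2%. At 90% of words repeated, 19.9% were in repeated sequence. Without peaks of the control lists it was 23.9%, and SNAPf-NLS recovery was 0% by construction. On chromosomes 1 to 22 and X that recovery was 2.76%.

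In subsets chosen after seeing the data, distal peaks outside repeats had a share of 24.5%, with recovery of 11.5% by the Sp1 DBD, 9.55% by parental mouse anti-V5, 0.637% by the CTCF DBD and 0% by SNAPf-NLS, and 79.0% specific to Sp1 WT. Protein-coding promoters outside repeats had a share of 2.28%, a median width of 621 bp, recovery of 13.5% by EWS IDR-Sp1 DBD, 22.5% and 19.1% by parental rabbit and mouse anti-V5, 10.1% by the CTCF DBD and 0% by SNAPf-NLS, and 76.4% specific to Sp1 WT. Causes of these changes were not tested.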

Other observations

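The second of the deposited replicate values was the higher one in 346 of the 381 GC-box-free peaks (90.8%) and in 97.4% of peaks with a GC box. Within repeated sequence the share was 79.8% of 114 members. Which labelled replicate each column holds is not given in the sources used here. Spearman's rho between both columns was 0.70 over the members and 0.82 over peaks with a GC box, as a description across peaks that were all selected for reproducibility.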
